A study of Mus musculus with 8 samples.

Results

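The genes described here are the cyclin-dependent kinase inhibitors and their companions in cellular senescence, measured in the hippocampus of young and old mice. The 9 genes were chosen by name and not by their values. They comprise the Ink4 family (Cdkn2a, Cdkn2b, Cdkn2c and Cdkn2d), the Cip/Kip family (Cdkn1a, Cdkn1b and Cdkn1c), the transcription factor gene Trp53 and the nuclear lamina gene Lmnb1. They are 9 of the 19751 named genes on the array and were read by 12 probes, with 2 probes for each of Cdkn1a, Cdkn2a and Cdkn2b. Wild type, untreated C57BL/6J mice were compared at 3 months (3M, n = 4) and 29 months (29M, n = 4). By the study's methods, its oldest mice were bought already aged from a supplier and then kept for months in its own rooms. Their age is given there as a range. The whole hippocampus was dissected by hand, and each sample was labelled with Cy3 and hybridised to its own 1-colour Agilent array. Within a group the 4 arrays carried no label other than a replicate number. The comparison asked which transcripts of the hippocampus differed between young adult and very old mice.

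Cyclin-dependent kinases drive a cell through its division cycle once a cyclin has bound them. Ink4 proteins bind Cdk4 and Cdk6 and keep them from D-type cyclins, whereas Cip/Kip proteins bind complexes of kinase and cyclin. With the kinases held off, the retinoblastoma protein keeps E2F factors silent and division stops. A lasting arrest of this kind, with loss of lamin B1 from the nuclear lamina and secretion of cytokines and proteases, is known as cellular senescence, and its usual molecular marks are products of Cdkn2a and Cdkn1a. Most hippocampal cells are neurons that no longer divide, and a small pool of dividing precursors lies in the dentate gyrus.

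The arrays lay on 3 slides, each of which held both ages. Slide 1 held 3M replicate 1 with 29M replicates 3 and 4, and slide 2 held replicate 2 of both ages. Slide 3 held 3M replicates 3 and 4 with 29M replicate 1. The share of spots well above background ranged from 76.2% to 85.0% per array. The lowest share belonged to 3M replicate 1, the only array that the scanner software marked for evaluation. Correlation between arrays over all probes was 0.991 to 0.998. In whole tissue, fewer cells of a type and less RNA per cell cannot be told apart. Values are normalised log2 intensities from a variance stabilising model, and for bright probes a difference of 1 is close to a doubling. Local background was not subtracted, so near background a difference of 1 need not be a doubling of the transcript. The values can be compared between arrays but not between probes. A probe was called changed when limma's adjusted p was under 0.1 and the log2 difference between ages was at least 0.5, which is 1.414-fold.

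In the old hippocampus 1 of the 2 Cdkn2a probes rose and the Lmnb1 probe fell. No probe of the other 7 genes passed both thresholds. The second Cdkn2a probe was not well above background on any array, and the Lmnb1 call was kept under 9 of 18 alternative settings. The call was reached by 2 of the 12 probes, against 2.06% of all 39408 probes tested in either direction. The groups did not overlap at 3 of the 12 probes, those of Cdkn2a, Lmnb1 and Cdkn1c, against 11.1% of all probes. Of the 12 probes, 8 were well above background on all 8 arrays, and 5 had an unadjusted p under 0.05, against 16.9% of all probes.

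**Figure D1:**
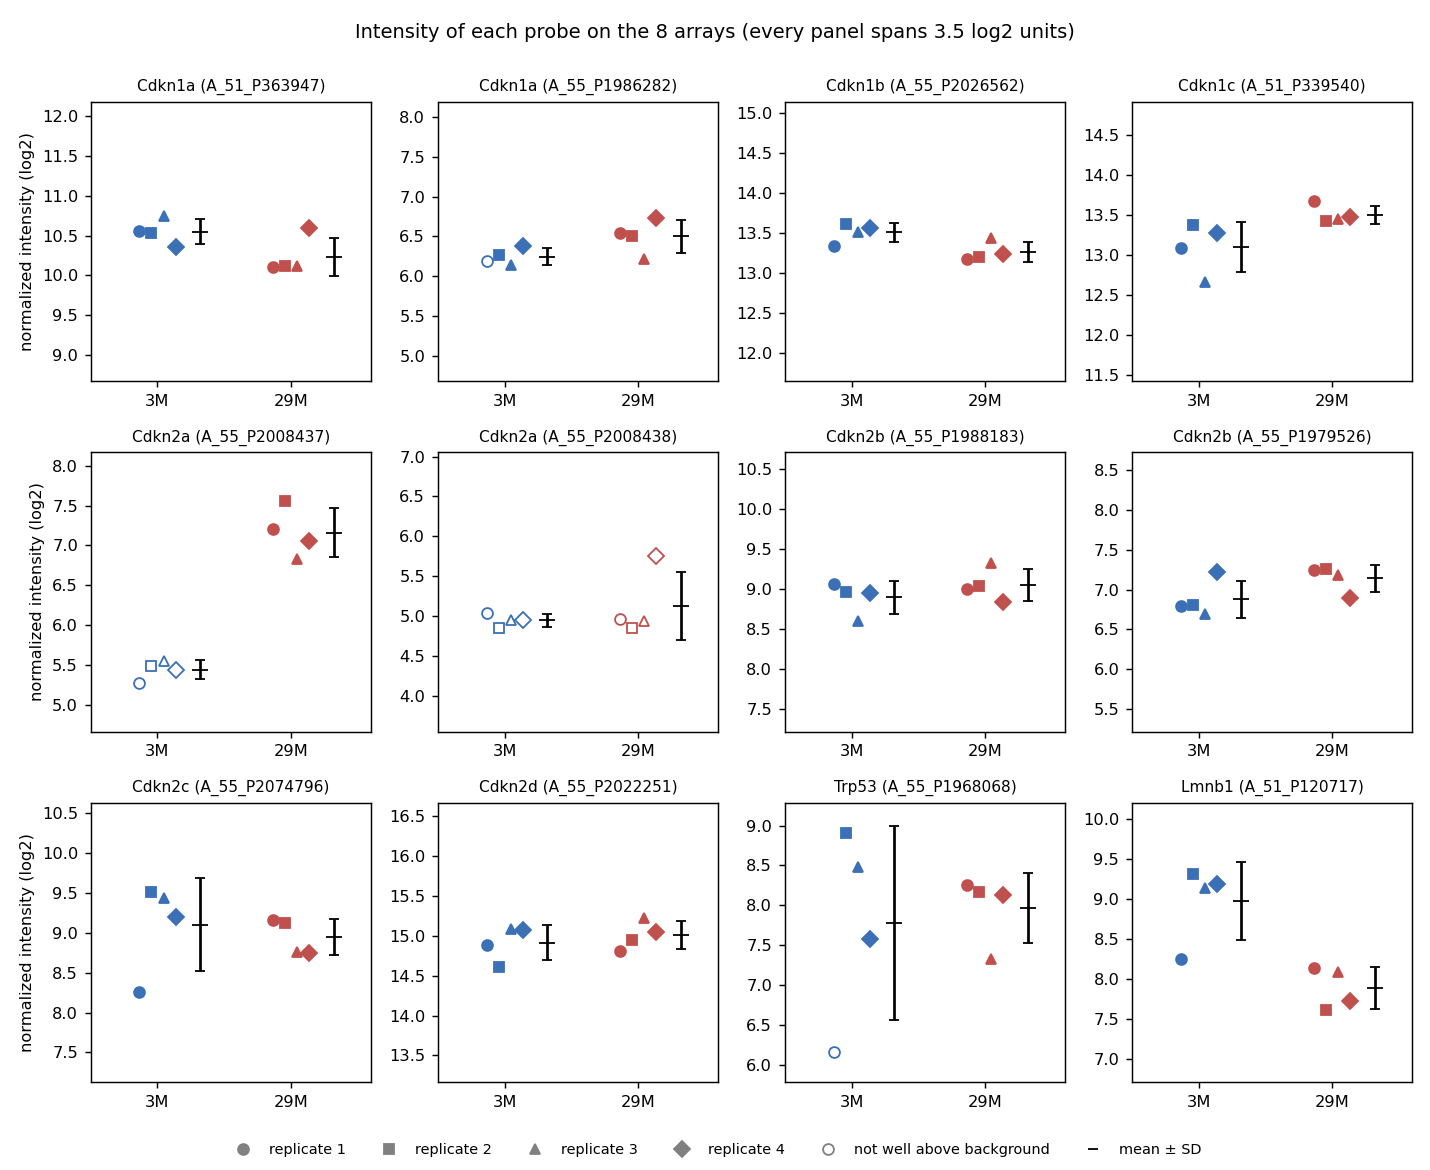
Normalised log2 intensity (y axis) of each of the 12 probes on the 4 arrays at 3M (blue) and the 4 at 29M (red). Symbols mark the replicate number, open symbols a value not well above background, and the black bar the mean ± SD. For Cdkn2a probe A_55_P2008437 the 29M arrays lie between 6.83 and 7.55, all above the open 3M symbols at 5.28 to 5.56, and for Lmnb1 the 29M arrays lie at 7.61 to 8.14, below the 3M arrays at 8.25 to 9.31.

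Cdkn2a is an unusual gene in that it has a pair of first exons, each with its own promoter, spliced to common exons that are read in different frames. The upstream start gives p19Arf, which holds back Mdm2 and so stabilises p53, and the downstream start gives p16Ink4a, which inhibits Cdk4 and Cdk6. Cdkn2b, whose product p15Ink4b is also an inhibitor of these kinases, lies next to it. The 250 bases upstream of each start are shown because the changed gene and its neighbour share this locus. They are given 5′ to 3′ on the gene's own strand from RefSeq, build GRCm38.p6, where capitals mark GGGCGG (the Sp1 box) and TTTCCCGC or TTTGGCGC (E2F sites) found on either strand.
Cdkn2a upstream start, chr4:89294620-89294869, minus strand: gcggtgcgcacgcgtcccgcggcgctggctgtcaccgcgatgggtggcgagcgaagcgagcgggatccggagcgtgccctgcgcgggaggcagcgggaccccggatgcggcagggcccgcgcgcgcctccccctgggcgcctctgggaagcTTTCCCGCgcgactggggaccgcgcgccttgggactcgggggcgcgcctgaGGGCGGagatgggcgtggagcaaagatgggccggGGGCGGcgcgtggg
Cdkn2a downstream start, chr4:89282193-89282442, minus strand: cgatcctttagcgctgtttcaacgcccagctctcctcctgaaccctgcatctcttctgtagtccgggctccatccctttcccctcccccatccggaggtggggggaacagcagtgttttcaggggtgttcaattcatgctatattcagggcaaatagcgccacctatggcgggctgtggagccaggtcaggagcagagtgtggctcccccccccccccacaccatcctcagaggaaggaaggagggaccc
Cdkn2b start, chr4:89311033-89311282, minus strand: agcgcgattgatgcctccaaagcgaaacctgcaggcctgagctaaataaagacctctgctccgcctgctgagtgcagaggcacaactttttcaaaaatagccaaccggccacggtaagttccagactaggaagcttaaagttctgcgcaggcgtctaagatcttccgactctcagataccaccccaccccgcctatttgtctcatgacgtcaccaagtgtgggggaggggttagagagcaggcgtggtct

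The Cdkn2a starts lie 12427 bases apart, and 11669 bases separate the gene from Cdkn2b. The upstream Cdkn2a stretch is 78.4% G and C with 40 CpG dinucleotides, and holds 2 Sp1 boxes and 1 E2F site. The downstream stretch is 60.0% G and C with 7 CpG dinucleotides, and that of Cdkn2b is 53.6% with 12, both with none of these motifs. Over windows of 300 bases (250 before to 50 after a start), the E2F letters occurred in 1.56% of all 32851 RefSeq starts and in 1 of the 10 windows found for 7 of the 9 genes, that of upstream Cdkn2a. Sp1 boxes occurred in 35.7% of all windows and in 7 of the 10, among them downstream Cdkn2a and Cdkn2b with 1 box each. The median over all windows was 52.7% G and C with 7 CpG dinucleotides. CCAAT occurred in 37.4% of all and in 5 of the 10, TATAAA in 13.6% and in 1 of the 10 (Trp53), and the p53 consensus decamer in 8.36% and in 3 of the 10. The E2F letters did not overlap a Sp1 box in the stretch printed. These matches describe letters only, and no binding was measured here.

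Cdkn2a was read by 2 probes, both filed under the accession of the p19Arf transcript, NM_009877. No probe carried the accession of the p16Ink4a transcript, and since probe positions were not used here, the transcripts of the upstream and downstream starts cannot be told apart. Probe A_55_P2008437 read 5.28, 5.49, 5.56 and 5.44 in 3M replicates 1 to 4, and 7.20, 7.55, 6.83 and 7.05 in 29M replicates 1 to 4. All 4 old samples were above all 4 young ones by over 1 log2 unit. The signal was well above background on 0 of 4 young arrays and on 4 of 4 old arrays. The mean was 5.44 ± 0.12 (SD, n = 4) at 3M and 7.16 ± 0.30 (SD, n = 4) at 29M, a difference of 1.72 ± 0.15 (SE) with limma's adjusted p = 0.00195 and a 95% interval of 1.39 to 2.04. With the young arrays set at a detection bound, the level was 2.87-fold higher at 29M on this scale, which near background need not follow the transcript. This bound sets each 3M array at the higher of the probe's own value and a floor, with a mean of 5.64. The floor is the lowest signal among probes well above background, 5.39 to 6.03 over the 3M arrays. It is not an upper limit, since Trp53 read 6.16 on 3M replicate 1 and was not well above background there. The fold at the bound also leaves out the spread between samples. Within slides 1, 2 and 3 the difference was 1.66, 2.06 and 1.70.

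The second Cdkn2a probe, A_55_P2008438, was not well above background on any of the 8 arrays. It read 5.04, 4.85, 4.95 and 4.95 in 3M replicates 1 to 4, and 4.96, 4.85, 4.94 and 5.76 in 29M replicates 1 to 4. Only 29M replicate 4 stood above the young samples, and the difference of 0.18 ± 0.18 (SE) did not pass the test (adjusted p = 0.671). The rise of Cdkn2a therefore rests on 1 of its probes, with 1 spot per array. With the processed signal scaled to the 75th percentile in place of the variance stabilised median signal, its difference was 3.36, and with normexp and quantile normalisation 1.20. The call was kept under 18 of 18 alternatives. In 1 of these, only probes well above background on all arrays of at least 1 age were tested. This probe passed that filter through its 29M arrays alone, so that alternative is not independent support.

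**Figure D2:**
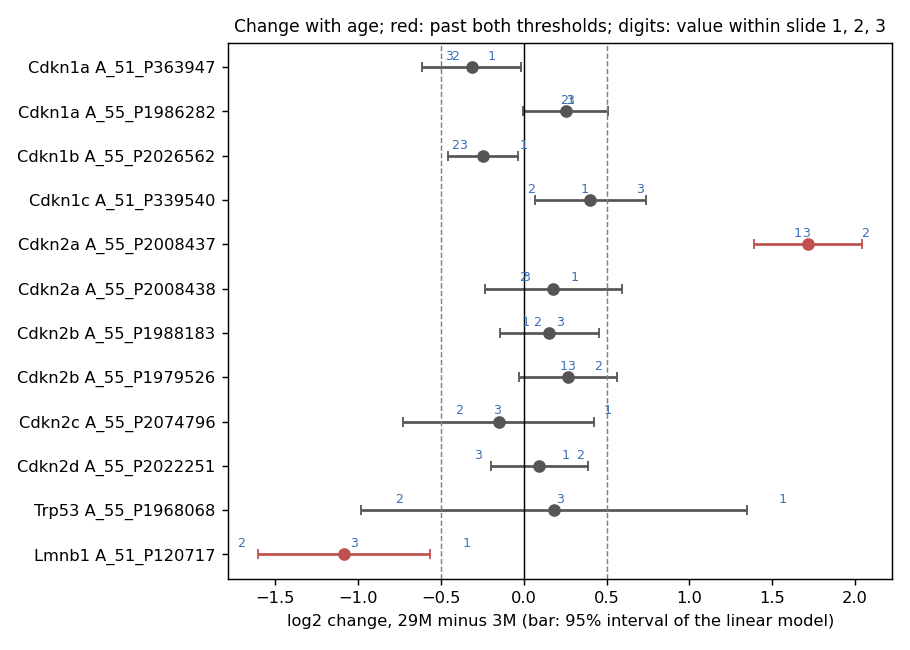
Difference in log2 intensity, 29M minus 3M (x axis), of each of the 12 probes, with its 95% interval from the linear model and with digits for the value within slides 1, 2 and 3. Dashed lines mark a difference of 0.5 in either direction, and red marks the called probes, Cdkn2a A_55_P2008437 at 1.72 and Lmnb1 at -1.08.

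The neighbour Cdkn2b did not pass the test at either of its probes. Probe A_55_P1988183 read 9.07, 8.96, 8.60 and 8.95 at 3M and 8.99, 9.04, 9.33 and 8.83 at 29M in replicate order, a difference of 0.16 ± 0.13 (SE, adjusted p = 0.601). Probe A_55_P1979526 read 6.80, 6.80, 6.69 and 7.22 at 3M and 7.24, 7.25, 7.19 and 6.90 at 29M, a difference of 0.27 ± 0.13 (SE, adjusted p = 0.346). The ages overlapped at both. With the young Cdkn2a values set at their bound, the difference between ages was larger for Cdkn2a by 1.37 and 1.26 log2 units than at these probes. The young values of Cdkn2a were set at a bound and the separation of its groups was known, so no p is given for this.

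The remaining Ink4 genes, Cdkn2c for p18Ink4c and Cdkn2d for p19Ink4d, act on the same kinases and are expressed by many cells outside senescence. Cdkn2c read 8.25, 9.51, 9.44 and 9.20 in 3M replicates 1 to 4, and 9.16, 9.12, 8.76 and 8.75 in 29M replicates 1 to 4. The ages overlapped, with the lowest value on 3M replicate 1, and the difference was -0.15 ± 0.26 (SE, adjusted p = 0.813). It was -0.43 (adjusted p = 0.124) without that array, -0.015 (adjusted p = 0.988) without 3M replicate 2, and -0.037 to -0.22 without any other. Within slides 1, 2 and 3 it was 0.50, -0.39 and -0.16, and 3M replicate 1 was the only young array on slide 1. Cdkn2d was bright on every array, reading 14.89, 14.61, 15.08 and 15.07 at 3M and 14.80, 14.95, 15.23 and 15.05 at 29M in replicate order. Its difference of 0.09 ± 0.13 (SE, adjusted p = 0.766) had a 95% interval of -0.20 to 0.39, which lay inside the threshold of 0.5 on both sides.

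In the Cip/Kip family no probe passed the test. Cdkn1a encodes p21, the inhibitor that p53 induces after DNA damage, and its probes moved in opposite directions. Probe A_51_P363947, printed as 10 spots on each array, read 10.55, 10.53, 10.75 and 10.36 in 3M replicates 1 to 4, and 10.10, 10.11, 10.12 and 10.59 in 29M replicates 1 to 4. The first 3 old samples lay below every young one, while 29M replicate 4 lay among them, and the difference was -0.32 ± 0.13 (SE, adjusted p = 0.268). Without that sample it was -0.43 (adjusted p = 0.123). Spots of this probe on 1 array had an SD of 0.08 to 0.18.

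Probe A_55_P1986282, filed under a second Cdkn1a transcript (NM_001111099), was dim and read 6.19, 6.27, 6.15 and 6.38 at 3M and 6.54, 6.51, 6.22 and 6.73 at 29M in replicate order. It was well above background on 3 of 4 young and 4 of 4 old arrays, and its difference was 0.25 ± 0.11 (SE, adjusted p = 0.303). With both probes averaged, the difference of Cdkn1a was -0.03 (adjusted p = 0.915). RefSeq gives this gene 2 transcripts with starts on chromosome 17, and which of them each probe reads was not examined.

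Cdkn1b encodes p27, which holds differentiated cells out of the cycle. It read 13.34, 13.61, 13.52 and 13.56 in 3M replicates 1 to 4, and 13.17, 13.20, 13.44 and 13.24 in 29M replicates 1 to 4. Of the old samples, 3 lay below all young ones and 29M replicate 3 lay above the lowest of these. The difference was -0.25 ± 0.09 (SE, adjusted p = 0.231), and within slides 1, 2 and 3 it was -0.00, -0.41 and -0.37.

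Cdkn1c, an imprinted gene for p57, was the only probe of this family whose ages did not overlap. It read 13.09, 13.38, 12.66 and 13.27 in 3M replicates 1 to 4, and 13.67, 13.42, 13.44 and 13.47 in 29M replicates 1 to 4. The highest young and the lowest old value were close, at 13.38 and 13.42, and the difference of 0.40 ± 0.15 (SE) did not pass the test (adjusted p = 0.216). Its lowest value was on 3M replicate 3. The mean centred level of 8 choroid plexus markers was also lowest there, at -0.83, against -0.03 to 0.37 on the other 3M arrays and -0.23 to 0.16 at 29M, and that of 6 ependyma markers was -0.91. Their part in the Cdkn1c values was not tested.

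Trp53 encodes p53, which induces Cdkn1a and other genes after damage. It read 6.16, 8.91, 8.48 and 7.58 in 3M replicates 1 to 4, and 8.25, 8.16, 7.32 and 8.13 in 29M replicates 1 to 4. The young samples spread over more than 2 log2 units and enclosed the old ones, and 3M replicate 1 was not well above background. The difference was 0.18 ± 0.52 (SE, adjusted p = 0.896), with a 95% interval of -0.98 to 1.35, which takes in differences past the threshold of 0.5 in both directions. Without 3M replicate 1 it was -0.35 (adjusted p = 0.579).

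Lmnb1 encodes lamin B1, a filament protein of the inner nuclear membrane. Its probe, printed as 10 spots on each array, read 8.25, 9.31, 9.13 and 9.19 in 3M replicates 1 to 4, and 8.14, 7.61, 8.09 and 7.72 in 29M replicates 1 to 4. All old samples were below all young ones, but 3M replicate 1 at 8.25 came close to the highest old sample at 8.14, while the other young samples were above 9. The mean fell from 8.97 ± 0.49 (SD, n = 4) to 7.89 ± 0.27 (SD, n = 4), a difference of -1.08 ± 0.23 (SE, adjusted p = 0.0569, 95% interval -1.60 to -0.56), or 2.12-fold. All 8 arrays were well above background, and spots on 1 array had an SD of 0.19 to 0.23.

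The difference was -0.34, -1.71 and -1.02 within slides 1, 2 and 3, where slide 1 held 3M replicate 1. Without 3M replicate 1 the difference was -1.32 (adjusted p = 0.00306). The call was lost when other arrays were left out, with adjusted p = 0.161, 0.133 and 0.124 without 3M replicates 2, 3 and 4, and 0.116, 0.149 and 0.148 without 29M replicates 1, 2 and 4. The call also failed when slide entered as a fixed block (-0.96, adjusted p = 0.115) and with the processed signal scaled to its 75th percentile (-1.23, adjusted p = 0.121). The related lamin gene Lmnb2 differed by 0.00 ± 0.11 (SE, adjusted p = 0.990). The difference of Lmnb1 minus that of Lmnb2 was -1.09. The separation of the Lmnb1 groups was known, so no p is given for this.

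**Figure D3:**
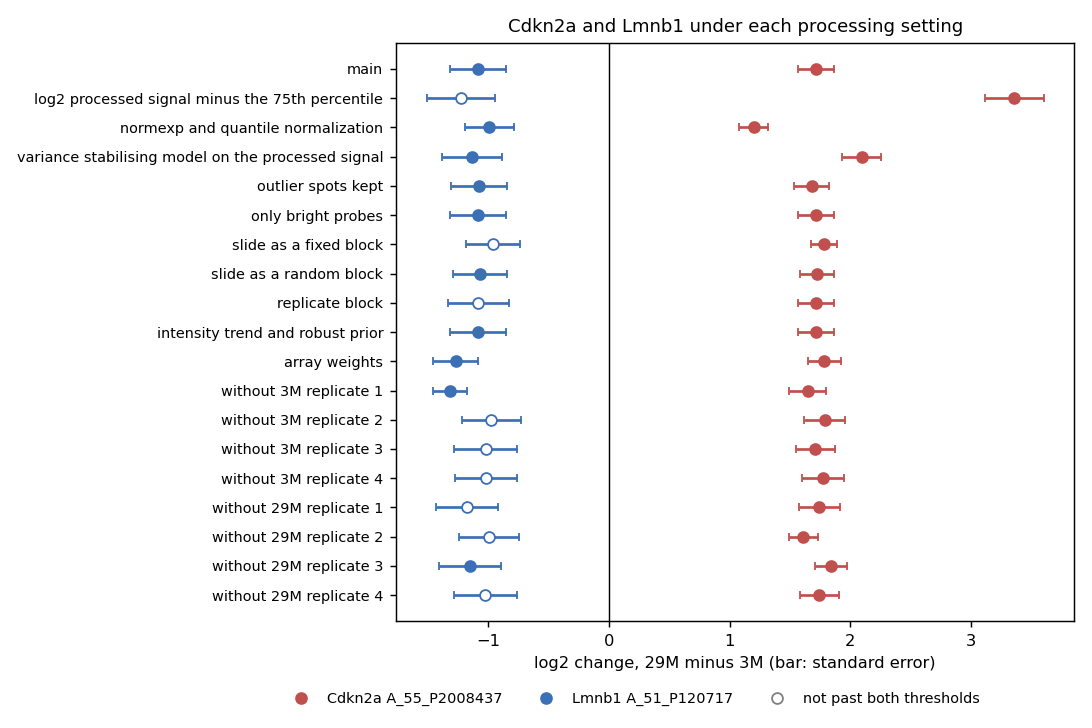
Difference in log2 intensity, 29M minus 3M (x axis), of Cdkn2a A_55_P2008437 (red) and Lmnb1 (blue) under the main processing and 18 alternatives, with bars for the standard error and open symbols where a threshold was missed. Cdkn2a stays between 1.20 and 3.36 with filled symbols throughout, and Lmnb1 stays between -1.32 and -0.96 with filled symbols in 9 of the 18.

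Around these genes, 10 lists of pathway genes were followed, with 1 probe per gene. Of 169 genes on the array, 10 were called higher and 8 lower at 29M. Over all 19742 genes tested, 1.58% were called higher and 0.689% lower, with a median difference of 0.01. The 18 calls fell into 4 of the lists, and the other 6 lists had none.

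Among 13 kinases and cyclins, the partners that the inhibitors act on, 3 were lower and none higher. Ccnb1, the mitotic cyclin, differed by -1.02 ± 0.16 (SE, adjusted p = 0.0189), its kinase Cdk1 by -0.77 ± 0.17 (SE, adjusted p = 0.0642), and Ccnd2, a D-type cyclin of precursor cells, by -0.72 ± 0.14 (SE, adjusted p = 0.0407). The groups did not overlap at any of these. The count was 1 without 3M replicate 2 or 29M replicate 1 and 0 with the replicate number as a block. The following were chosen for their role with values known. Cdk4, a kinase that Ink4 proteins bind, differed by -0.17 ± 0.09 (SE, adjusted p = 0.386). Cdk6, which they also bind, was not well above background on any array. Of 13 genes of the retinoblastoma and E2F families none was called, and Rb1 itself differed by 0.18 ± 0.08 (SE, adjusted p = 0.296).

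The p53 branch held no call. None of 13 p53 regulators passed, with differences between -0.24 (Mdm2, the ligase that degrades p53) and 0.15. None of 28 p53 target genes passed either. Their median difference was -0.07, and at an unadjusted p under 0.05 limma gave 2 higher and 3 lower, where 9.44% of all genes were higher and 7.65% lower at that level. Pmaip1, a death-promoting p53 target, had the largest difference among them, at 0.53 ± 0.16 (SE, adjusted p = 0.142), and was singled out after its value was seen.

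Among 17 regulators of the Ink4 and Arf locus, most of them Polycomb proteins that keep it silent, 1 was called. Cbx8, a chromodomain protein of such a complex, read 10.08 to 10.50 at 3M and 9.52 to 9.73 at 29M, a difference of -0.66 ± 0.10 (SE, adjusted p = 0.0205). The list held 1 gene called lower under each of 19 alternatives. Bmi1, the best known repressor of the locus, differed by 0.18 ± 0.09 (SE, adjusted p = 0.347), and Ezh2, the Polycomb methyltransferase, by -0.13 ± 0.10 (SE, adjusted p = 0.528).

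No gene was called among 12 regulators of the Cip/Kip genes, where 3 were higher and 3 lower at an unadjusted p under 0.05 in limma (9.44% and 7.65% of all genes). No gene was called either among the 9 genes of Cip/Kip protein turnover on the array, with 2 higher and 1 lower at that level, or among 14 genes of the lamina and of senescence chromatin, with 1 higher and 1 lower. In the last of these Lmna, the gene of lamins A and C, had the only difference at that level with separate groups, 0.32 ± 0.13 (SE, adjusted p = 0.263).

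**Figure D4:**
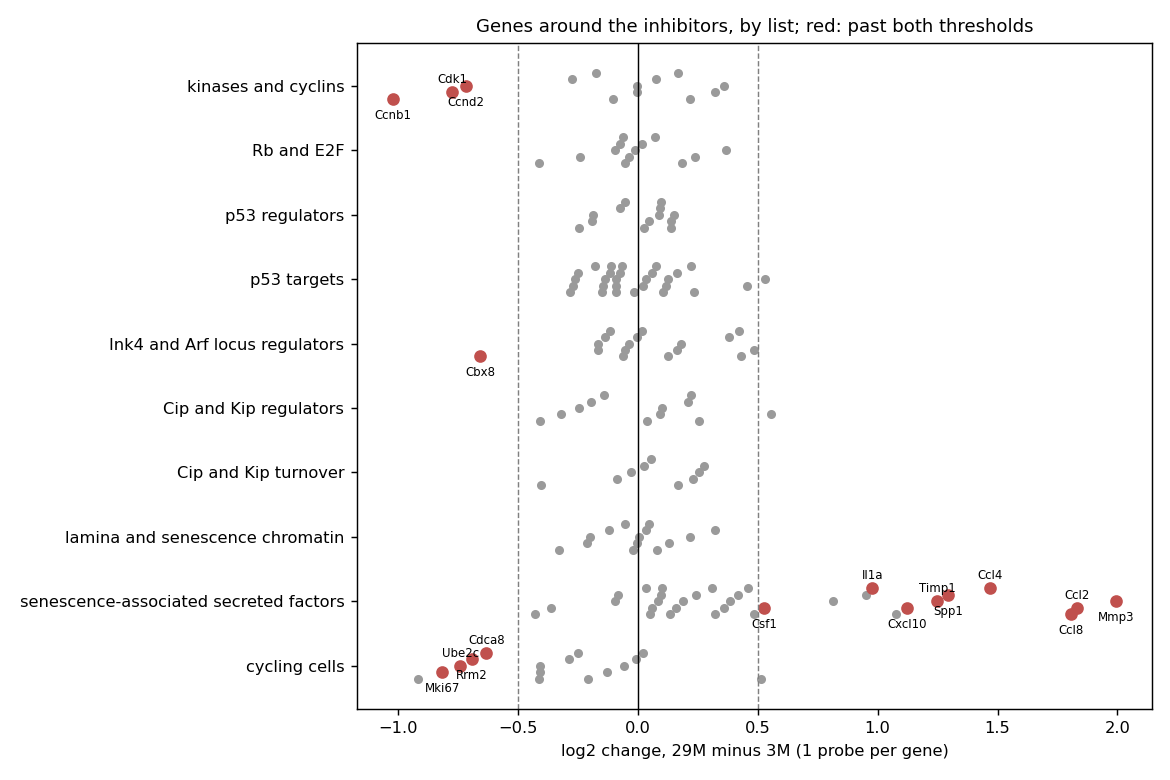
Difference in log2 intensity, 29M minus 3M (x axis), of the genes of each of the 10 pathway lists, 1 point per gene with 1 gene left out, with called genes in red and named and dashed lines at a difference of 0.5 in either direction. The genes called higher all lie in the row of secreted factors, and the 8 called lower lie in the rows of kinases and cyclins, of cycling cells and of regulators of the Ink4 and Arf locus.

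The secreted factors known from senescent cells held all 10 genes called higher. Of 34 genes in this list none was called lower, and the median difference was 0.37. The 6 with the largest differences were the stromelysin gene Mmp3, the chemokine genes Ccl2, Ccl8 and Ccl4, the osteopontin gene Spp1 and the protease inhibitor gene Timp1. Ccl2, a monocyte attractant, rose by 1.83 ± 0.15 (SE, adjusted p = 0.00195) from 7.31 ± 0.29 (SD, n = 4) to 9.15 ± 0.19 (SD, n = 4). Ccl8 rose by 1.80 ± 0.38 (SE, adjusted p = 0.0568), Ccl4 by 1.47 ± 0.25 (SE, adjusted p = 0.0257), Spp1 by 1.29 ± 0.30 (SE, adjusted p = 0.0730) and Timp1 by 1.25 ± 0.28 (SE, adjusted p = 0.0681). Mmp3 was well above background on 0 of 4 young and 3 of 4 old arrays, and its groups overlapped. With the young arrays set at the bound it was 3.22-fold higher at 29M on the same scale (adjusted p = 0.0570 for the measured values). Cxcl10, Il1a and Csf1 were also called, with differences between 0.53 and 1.12. Il6, the cytokine most often measured in senescence, passed the adjusted p (0.0687) but not the size, at 0.46 ± 0.10 (SE), and Il1b differed by 0.16 ± 0.25 (SE, adjusted p = 0.788). These 2 were chosen for their role with values known.

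Several of these factors are also made by microglia and astrocytes. Microglia markers averaged -0.27 to -0.05 at 3M and 0.09 to 0.25 at 29M (mean centred log2 intensity of 10 genes), and 2 of the 10, C1qa and Trem2, were called higher, by 0.86 and 0.65. Astrocyte markers averaged -0.19 to -0.07 at 3M and 0.03 to 0.21 at 29M, with 1 of 8, Gfap, called higher. Endothelium markers averaged -0.11 to -0.07 at 3M and -0.02 to 0.16 at 29M, with none of 8 called (2 higher at an unadjusted p under 0.05 in limma). Of the T and B cell markers, whose averages overlapped, Cd8a was called higher, by 0.71 ± 0.09 (SE, adjusted p = 0.00732). Microglia, astrocyte and endothelium markers and Cd8a moved with Cdkn2a and with the secreted factors, and their part in these results was not tested. The count of 10 secreted factors was 13 without 3M replicate 1, 4 without 3M replicate 2, 6 without 3M replicate 3 and 5 without 29M replicate 1 or 29M replicate 2.

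Of 16 genes of cycling cells, 4 were lower and none higher, with a median difference of -0.35 and 9 lower at an unadjusted p under 0.05 in limma, against 7.65% of all genes. Mki67, the gene of the proliferation antigen Ki-67, fell by 0.81 ± 0.14 (SE, adjusted p = 0.0257), and Rrm2, a subunit of ribonucleotide reductase, by 0.69 ± 0.12 (SE, adjusted p = 0.0266). Ube2c and Cdca8, both of mitosis, differed by -0.74 and -0.63 (adjusted p = 0.0815 and 0.0961). The count was 3 without 3M replicate 1 and 2 without any other single array. It was 2 with slide as a fixed block and 0 with the replicate number as a block.

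Lmnb1 moved in the same direction as this list. The mean centred level of the cycling genes was 0.08 to 0.28 at 3M and -0.34 to -0.06 at 29M, and that of 8 markers of immature neurons was 0.00 to 0.46 at 3M and -0.32 to -0.10 at 29M. Of the latter, 1 gene was called, Igfbpl1, at -1.55 ± 0.39 (SE, adjusted p = 0.0904) with overlapping groups, and the median difference was -0.44. Markers of mature neurons did not separate the ages, at -0.10 to 0.03 at 3M and -0.06 to 0.05 at 29M, with a median difference of 0.01. On 3M replicate 1, where Lmnb1 was close to the old samples, the cycling genes stood at 0.20, inside the young range. Of 6 oligodendrocyte precursor markers, whose averages overlapped between the ages, Gpr17 was called lower, at -0.99 ± 0.21 (SE, adjusted p = 0.0561). The median difference of these 6 was 0.18. The part of these cell types in the fall of Lmnb1 was not tested.

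**Figure D5:**
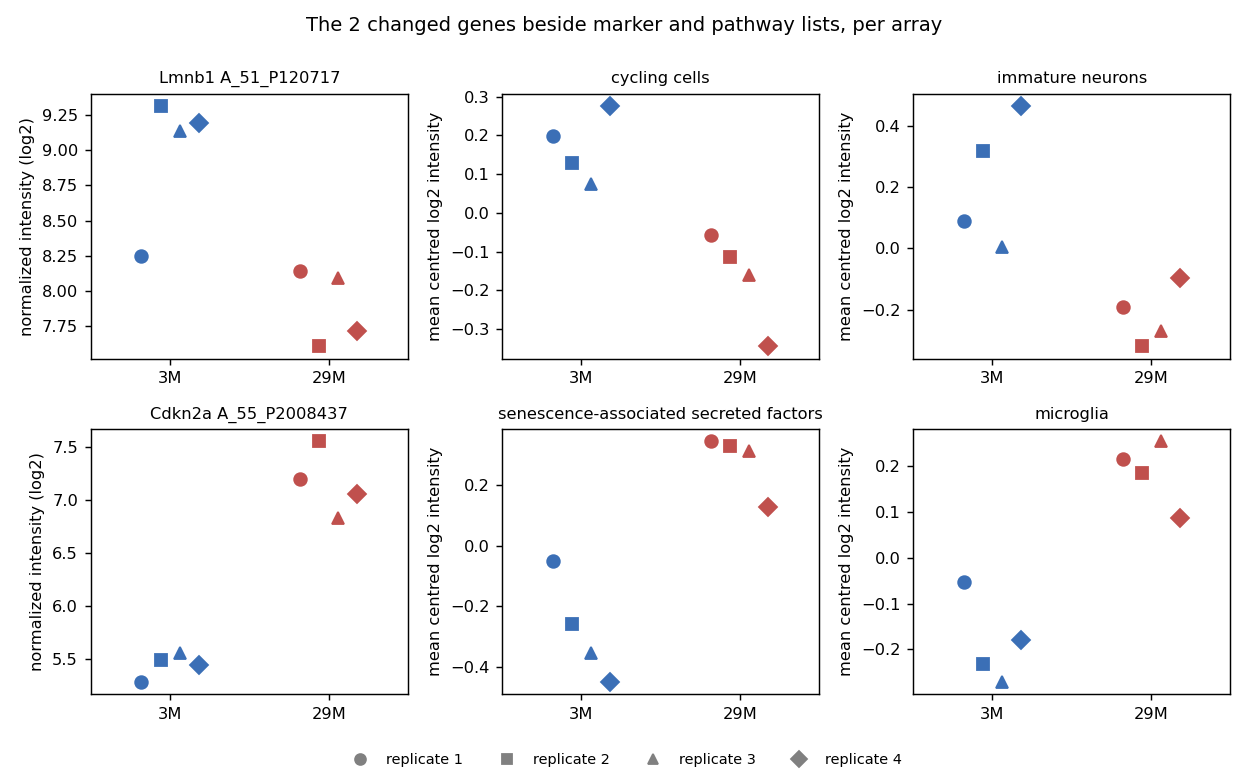
Lmnb1 and Cdkn2a (normalised log2 intensity) beside the mean centred log2 intensity of gene lists on each array, with 3M in blue, 29M in red and symbols for the replicate number. The ages separate in all 6 panels, downward at 29M for Lmnb1, cycling cells (-0.34 to -0.06 at 29M) and immature neurons, and upward for Cdkn2a, secreted factors (0.13 to 0.34 at 29M) and microglia.

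The genes whose profiles over the 8 arrays were most like those of the changed pair were sought among probes well above background on all arrays, by the root mean square difference of profiles centred on their means. For Cdkn2a they were Flnc, Spag6, Ifit1, Ccl2 and Gpnmb, with root mean square differences of 0.28 to 0.30 against a median of 0.89 over 15920 candidate genes. All of these rose at 29M, by 1.32 (Flnc, a muscle-type filamin), 1.83 (Spag6, a protein of motile cilia), 1.42 (Ifit1, an interferon-induced protein), 1.83 (Ccl2) and 1.13 (Gpnmb, a glycoprotein of lipid-laden phagocytes). For Lmnb1 they were Msl2, Zmynd8, Kdelr1, Dgkk and Tm6sf2, at 0.21 to 0.27 against a median of 0.67 over 15919. Their differences between ages ran from -1.15 for Kdelr1, a receptor that returns proteins to the endoplasmic reticulum, to -0.71 for Tm6sf2, and 4 of the 5 were called, Zmynd8 (-0.77, adjusted p = 0.125) being the exception. A gene picked for its likeness to a changed probe had to differ between the ages, so these values are a description.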

How the data were processed

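RNA from 8 hippocampus samples (3M and 29M, 4 each) was hybridised to Agilent 4x44K 1-colour arrays. The authors deposited scanner output with spot intensities, made per the file headers with Agilent Feature Extraction 10.7.3.1. A series table of intensity values, also deposited, was not used: to within 0.001, 7 of its 8 columns equal another array's local background.

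Here the median signal intensity was used, since the mean was not in the files used here. Control spots and outlier spots were left out. A variance stabilising model (own code after the VSN method, least trimmed squares with quantile 0.9) gave log2 values, spots of 1 probe were averaged (43020 spots, 39429 probes), and a linear model with empirical Bayes was fitted with limma 3.58.1 in R 4.3.3, with Benjamini-Hochberg adjustment over the 39408 probes with at least 3 usable arrays per group. Thresholds followed the study's methods. In the lists, the brightest of a gene's probes was used. The scripts were tested on simulated data.

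The genes, lists and tests were chosen with earlier results of these data known. Named were all 9 genes with every probe, the called genes of each list (at most 6 by size), and for each called gene the 5 most similar profiles, with marker genes where they moved with one of the 9. Genes named outside this rule are said to be so, and 1 called gene of the lists is counted but not reported here by name. Alternatives were the processed signal scaled to its 75th percentile or in the variance model, normexp (offset 50) with quantile normalisation, outlier spots kept, only bright probes, blocks for slide or replicate number, an intensity trend, array weights, the mean of a gene's probes, adjusted p under 0.05, and each array left out. The number of arrays limits the precision, and nothing in the labels says more of the replicates than their number, so that p-values measure the spread between these samples.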

Additional observations from a re-analysis of the deposited data

Results flagged for a closer look

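Of 24 sets of 4 values (12 probes at each age), 4 held a sample far from the other 3, where chance gives about 1.2 (1 in 20). For Cdkn1a probe A_51_P363947, 29M replicate 4 read 10.59 against 10.10 to 10.12, and its gap to the nearest value was 0.954 of the range of the group. For Trp53, 29M replicate 3 was low at 7.32, with a gap of 0.874 of the range. For Cdkn2a probe A_55_P2008438, 29M replicate 4 was high at 5.76, with a gap of 0.877 of the range, though no array was well above background there. For Lmnb1, 3M replicate 1 was low at 8.25, with a gap of 0.830 of the range, and without this array the fall was -1.32.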

How the results depend on the processing

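The called probes of the 9 genes numbered 2, and 1 (that of Cdkn2a) with the processed signal scaled to the 75th percentile, with slide as a fixed block and at an adjusted p under 0.05. Over all probes 810 were called, 1504 with array weights and 487 at an adjusted p under 0.05, where the list genes numbered 10 in place of 18. Leaving out 1 array gave 383 (without 3M replicate 2) to 1466 (without 3M replicate 1) called probes, 1 to 2 called probes of the 9 genes and 8 to 22 called list genes. The cause was not tested. Signs turned only for differences that did not pass: Cdkn2c was 0.019 with slide as a fixed block, Trp53 -0.19 with array weights and -0.35 without 3M replicate 1, Cdkn2d -0.0069 without 3M replicate 2, Cdkn2a probe A_55_P2008438 -0.031 without 29M replicate 4, and Cdkn1a probe A_55_P1986282 -0.031 as the mean of both probes. Over all arrays left out in turn, Trp53 ranged from -0.35 to 0.57, Cdkn2d from -0.0069 to 0.16 and that Cdkn2a probe from -0.031 to 0.28.

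Replicate numbers are shared by the ages, and deviations of same-numbered samples correlated at -0.24, 0.21, -0.23 and 0.07. Of these pairs only that of replicate 2 lay on the same slide. The labels give no pairing, and these correlations cannot exclude one. With the replicate number as a block, 411 probes, 1 probe of the 9 genes (Cdkn2a, adjusted p = 0.0251) and 7 list genes were called, and Lmnb1 had adjusted p = 0.157. Signal over background limits both Cdkn2a probes and Trp53 at 3M.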
